A study of Mus musculus with 6 samples.

Results

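The ubiquitin-specific proteases were examined in D10 T cells kept at 26°C or at 37°C. The rule took every protein-coding gene of the deposited expression table whose symbol is Usp followed by a digit, with no measured value in the rule, and 56 of the 41079 listed genes met it. D10 (D10.G4.1) is described in the study as a cloned mouse helper T cell line that recognizes a conalbumin peptide. The labels give it as CD4+ with lymph node as its source, and they name no other genotype or agent. Cd4 RNA was not at a like level in all libraries, as given below. Cold-acclimated T cells spent 24 h at 26°C (n = 3 libraries), and non-acclimated T cells spent the same 24 h at 37°C (n = 3 libraries). The measurement was poly(A)-selected RNA-seq, given as TPM, a level per unit of gene length that is scaled to the same total in each library. The 26°C libraries held 19605883 to 25169484 reads assigned to genes, and the 37°C libraries held 16899628 to 31290854.

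Ubiquitin is a small protein that cells attach to other proteins, often as chains that send the target to the proteasome or alter where it goes and what it binds. Ubiquitin-specific proteases are the largest family of deubiquitinases, cysteine proteases that cut ubiquitin off again. In T cells, members of the family are known to act on receptor signalling, interferon responses, endosomal sorting of receptors, chromatin and the cell cycle. Of the 56 genes, 55 carried a deubiquitinase term in the deposited gene annotation. The exception was Usp6nl, whose terms were GTPase activator activity and small GTPase binding, so it shares the name but not the catalytic activity.

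Replicate 3 of both conditions stood apart from the other replicates before any comparison. Cd4, the marker in the cell type label, was at 310 and 328 TPM in replicate 3 (37°C and 26°C) but between 0.0351 and 1.30 TPM in the other 4 libraries. The 10 T cell markers summed to 3306 to 4876 TPM at 37°C and 3663 to 4613 TPM at 26°C, with Cd3e and Cd3g high in all 6 libraries and Trbc1 at 0 in 5. Replicate 2 of both conditions was lowest in Cd3d and Cd28. Cd3d was at 64.3 and 78.6 TPM there (37°C and 26°C) and from 240 to 332 TPM in the other libraries. Cd28 was at 7.35 and 5.61 TPM there and from 27.9 to 54.5 TPM in the others. B cell markers summed to 1.91 to 3.62 TPM at 37°C and 0.948 to 2.06 TPM at 26°C. Ms4a1 was at 0 throughout, and Ighm was at 0.894 to 3.13 TPM over the 6 libraries. Macrophage markers summed to 2.46 to 15.9 and 2.69 to 21.2 TPM, with Cd14 at 0. Lyz2 was at 11.6 and 14.8 TPM in replicate 3 (37°C and 26°C) and at 1.58 TPM or less in the other libraries. Cd68 was at 1.07 to 6.36 TPM over the 6 libraries. Erythroid markers summed to 79.95 to 487 and 61.3 to 474 TPM, nearly all from Hba-a1, with Hbb-bs and Hbb-bt at 0. Their part in the results was not tested. In bulk RNA, fewer cells of a type and less RNA per cell cannot be told apart.

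D10 T cells held transcripts of most of the family. With a mean of at least 1 TPM over the 6 libraries taken as the minimum for testing, 41 of the 56 genes were tested. Their median level was 29.2 TPM, against 20.7 TPM over all 12227 genes tested. Of the 41, 6 had a mean of 100 TPM or more, 26 lay between 10 and 100 TPM and 9 lay below 10 TPM. The highest means over the 6 libraries were those of Usp18 (256 TPM), Usp39 (188 TPM), Usp25 (158 TPM), Usp5 (135 TPM) and Usp7 (127 TPM), followed by Usp1 (126 TPM). The place of Usp18 came from the 37°C libraries: it ranged from 15.9 to 857 TPM, with means of 453 ± 411 TPM at 37°C and 60.2 ± 45.1 TPM at 26°C, where the other 5 of these genes were above it. Each of these genes ranged widely over libraries, and the order among Usp25, Usp5, Usp7 and Usp1 was within their spread. Usp25 ranged from 107 to 239 TPM, Usp5 from 103 to 182 TPM, Usp7 from 81.8 to 173 TPM and Usp1 from 60.8 to 196 TPM.

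The other 15 genes were not tested. Usp13, Usp17la, Usp17lb, Usp17lc, Usp26, Usp28, Usp29, Usp43 and Usp9y were listed at 0 in all 6 libraries. Usp2, Usp17ld, Usp17le, Usp50 and Usp51 had at most 4 reads in any library. Usp49, a histone H2B deubiquitinase, lay just under the minimum with a mean of 0.892 TPM, and Usp54 lay just above it, at 1.70 ± 0.409 TPM at 37°C and 1.01 ± 0.195 TPM at 26°C (SD, n = 3). None of the 9 genes known mainly from the germline or the Y chromosome reached the minimum. In several paralog pairs only a single member reached the minimum. Usp25 was at 200 ± 44.1 TPM at 37°C while Usp28, its paralog, was listed at 0. Usp5, which takes apart free ubiquitin chains, was at 145 ± 32.4 TPM while Usp13 was listed at 0. Usp9x was at 28.2 ± 6.87 TPM while its Y-linked copy Usp9y was listed at 0 in all 6 libraries.

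Cold acclimation was accompanied by changes in a small part of the family and in both directions. The test was limma on log2(TPM + 1), adjusted by Benjamini-Hochberg over all 12227 genes, and a call required an adjusted p under 0.05 together with a change of 1 or more on the log2 scale. Of the 41 genes, 2 were upregulated (4.88%), Usp30 and Usp44, and 3 were downregulated (7.32%), Usp8, Usp40 and Usp53. Over all genes tested, 2.63% were upregulated and 16.0% were downregulated. A further 4 genes passed the adjusted p with smaller changes: Usp39 was higher, and Usp19, Usp20 and Usp32 were lower. With these, the adjusted p was under 0.05 for 3 genes higher at 26°C (7.32%) and 6 lower (14.6%), against 3.3% and 17.4% of all genes. Of the rest, 4 had an unadjusted p under 0.05, so that 13 of 41 did in all. No share over all genes was taken for this count, so it is not read as a result about the family.

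**Figure D1:**
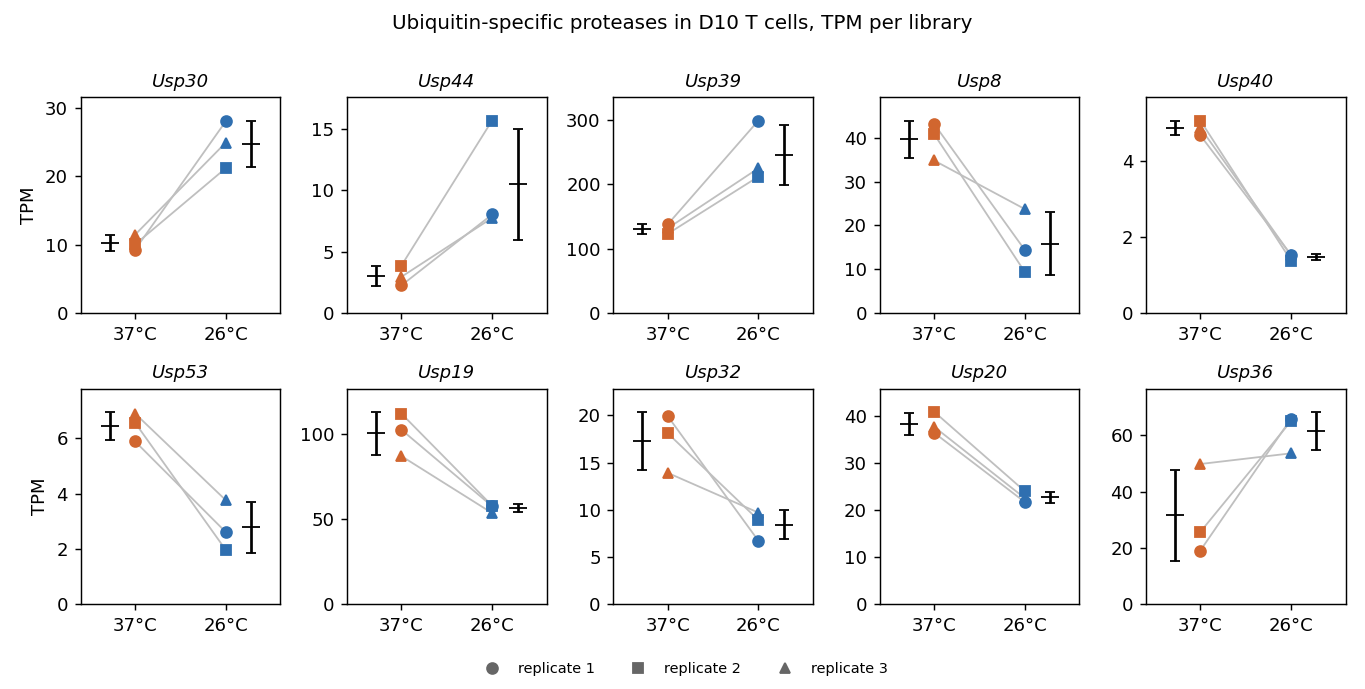
TPM of the 9 genes with an adjusted p under 0.05, and of Usp36, at 37°C (orange) and 26°C (blue); symbols mark the replicate number, grey lines join libraries with the same number, and black bars give the mean ± SD of 3 libraries. Usp30, Usp44 and Usp39 were higher and Usp8, Usp40, Usp53, Usp19, Usp32 and Usp20 lower in every 26°C library than in any 37°C library.

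The upstream sequence of the called genes is shown for the 3 that have an entry in RefSeq's promoter windows (GRCm38.p6), which held 43 of the 56 genes. Each line gives the 250 bases before the transcription start in lower case, 5′ to 3′ on the gene's strand, with matches to a GC box (GGGCGG on either strand) in capitals.
Usp30 (chr5:114100083-114100332, plus strand): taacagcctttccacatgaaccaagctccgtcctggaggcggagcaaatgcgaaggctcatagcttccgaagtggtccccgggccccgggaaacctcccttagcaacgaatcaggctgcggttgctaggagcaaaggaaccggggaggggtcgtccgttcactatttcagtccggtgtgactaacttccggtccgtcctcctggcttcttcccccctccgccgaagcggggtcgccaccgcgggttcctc
Usp8 (chr2:126707078-126707327, plus strand): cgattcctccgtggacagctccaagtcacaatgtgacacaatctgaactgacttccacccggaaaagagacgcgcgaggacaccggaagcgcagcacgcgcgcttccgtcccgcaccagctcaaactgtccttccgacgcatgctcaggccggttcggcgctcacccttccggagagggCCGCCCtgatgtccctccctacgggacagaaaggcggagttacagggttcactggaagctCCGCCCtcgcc
Usp40 (chr1:88008552-88008801, minus strand): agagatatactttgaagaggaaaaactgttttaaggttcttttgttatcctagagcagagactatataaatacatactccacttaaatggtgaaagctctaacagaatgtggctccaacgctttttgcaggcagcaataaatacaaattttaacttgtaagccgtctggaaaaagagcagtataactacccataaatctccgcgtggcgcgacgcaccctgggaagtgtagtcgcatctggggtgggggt
Usp8 held 2 GC boxes, starting 71 and 11 bases before the start, and neither Usp30 nor Usp40 held one in this window. The GC box was found in 22 of the 30 tested genes with a window and in 26 of all 43, against 32.7% of all 32851 windows of the same length. The window of Usp30 had 61.6% G and C and 20 CpG dinucleotides, that of Usp8 had 62.8% and 24, and that of Usp40 had 42.0% and 8. The CCAAT box (CCAAT) was in 13 of the 43 genes, among them only 3 of the 30 tested (Usp3, Usp7 and Usp11), against 33.8% of all windows. The E-box CACGTG was in 4 of the 43 (6.0% of all windows), the E2F site TTCCCGCC in 1 (1.9%), the ISRE core GAAANNGAA in 2 (7.1%) and the cAMP response element TGACGTCA in none (1.5%), all read on both strands. The set of all windows was not limited to tested genes. The shares of the tested genes thus had no like background, and they are not read as a trait of the family.

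Genes of the endosome, endoplasmic reticulum and mitochondrion changed in both directions. All 6 of this group were tested, and 1 was upregulated and 1 downregulated, against 2.63% and 16.0% of all genes. Another 3 were lower at an adjusted p under 0.05 with smaller changes. Of all genes, 17.4% were lower at that adjusted p with a change of any size. With median of ratios scaling, described below, Usp8, Usp19, Usp20 and Usp32 no longer passed the adjusted p. Usp30 sits on the mitochondrial outer membrane, where it removes ubiquitin that marks mitochondria for removal. Its gene lies at chr5:114238395-114261571 (GRCm39, plus strand). Usp30 was at 9.27, 10.04 and 11.5 TPM in the 37°C libraries and at 28.1, 21.2 and 24.9 TPM in the 26°C libraries. Every 26°C library was above every 37°C library. The means were 10.2 ± 1.11 and 24.7 ± 3.43 TPM (SD, n = 3), a log2 fold change of 1.19 (SE 0.236, limma adjusted p = 0.0166).

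Usp8 cuts ubiquitin from receptors at endosomes and thereby affects whether they are recycled or degraded. Its gene lies at chr2:126549280-126601234 (plus strand). Usp8 was at 43.2, 40.9 and 34.9 TPM at 37°C and at 14.4, 9.41 and 23.8 TPM at 26°C. The groups did not overlap, and replicate 3 showed the smallest fall. The log2 fold change was -1.35 (SE 0.340, limma adjusted p = 0.0316), with changes of -1.52, -2.01 and -0.53 within replicates 1, 2 and 3. Stam and Stam2, adaptors that bind Usp8 at the endosome, were at 10.3 ± 4.43 and 13.3 ± 1.66 TPM at 37°C and 17.6 ± 3.16 and 11.9 ± 2.19 TPM at 26°C, and neither passed the test (limma adjusted p = 0.161 and 0.706).

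Usp19 is anchored in the endoplasmic reticulum membrane and is known for its part in protein quality control. It was at 103, 112 and 87.3 TPM at 37°C and at 57.7, 58.0 and 53.7 TPM at 26°C. The 26°C libraries lay close together and below all 37°C libraries, a log2 fold change of -0.82 (SE 0.209, limma adjusted p = 0.0333). Usp20, which has been tied to receptor recycling, was at 36.5, 40.9 and 37.7 TPM at 37°C and 21.7, 24.0 and 22.6 TPM at 26°C. Its change was nearly the same in each replicate number, -0.72, -0.74 and -0.72 (log2 fold change -0.73, SE 0.208, limma adjusted p = 0.0451). Usp32, a membrane-bound protease of the endosomal system, was at 19.9, 18.1 and 13.9 TPM at 37°C and 6.72, 8.92 and 9.70 TPM at 26°C (log2 fold change -0.96, SE 0.265, limma adjusted p = 0.0418). Usp33, the closest relative of Usp20, did not pass the test. Usp33 was at 11.4, 16.6 and 3.13 TPM at 37°C and 10.6, 13.9 and 3.47 TPM at 26°C, so replicate 3 was low in both conditions, and the 95% interval of its change ran from -1.57 to 1.41.

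Usp44 was the gene of the cell cycle and DNA repair group that passed the test, among 6 tested. It acts at the mitotic checkpoint and also removes ubiquitin from histone H2B. Its gene lies at chr10:93655831-93696792 (plus strand) and overlaps Metap2 on the opposite strand. Usp44 was at 2.25, 3.86 and 2.95 TPM at 37°C and at 8.02, 15.7 and 7.74 TPM at 26°C. All 26°C libraries were above all 37°C libraries, with the highest value in replicate 2 in both conditions and a log2 fold change of 1.47 (SE 0.345, limma adjusted p = 0.0260). Metap2 was at 156 TPM at 37°C and 177 TPM at 26°C. Usp1, which acts on monoubiquitinated FANCD2 and PCNA, was at 107, 128 and 180 TPM at 37°C and 83.5, 60.8 and 196 TPM at 26°C. Usp1 was lower at 26°C in replicates 1 and 2 but not in replicate 3, and did not pass the test (log2 fold change -0.43, 95% interval -1.45 to 0.59). Usp11 and Usp45, both linked to DNA repair, had no overlap between groups but did not pass the test (log2 fold change -0.73, limma adjusted p = 0.156, and log2 fold change -0.52, limma adjusted p = 0.139). Usp37 and Usp47 overlapped between conditions.

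Of the 3 RNA, nucleolus and ribosome factors, Usp39 passed the adjusted p, and Usp39 and Usp36 had no overlap between conditions. Usp39, which is a splicing factor of the tri-snRNP and lacks the catalytic residues, was at 138, 123 and 132 TPM at 37°C and at 299, 212 and 225 TPM at 26°C. All 26°C libraries were above all 37°C libraries, a log2 fold change of 0.89 (SE 0.223, limma adjusted p = 0.0317). Usp36 is a nucleolar protease known to stabilize proteins of ribosome production and MYC. Usp36 was at 19.1, 25.7 and 49.8 TPM at 37°C and at 66.0, 65.1 and 53.6 TPM at 26°C. Replicates 1 and 2 differed by 1.74 and 1.31 on the log2 scale, and replicate 3 by 0.10. The log2 fold change of 1.05 (SE 0.356) missed the threshold (limma adjusted p = 0.0727), and passed it with the replicate number as a block (limma adjusted p = 0.0470, with 0.00788 to 0.197 over all 15 alternatives). Usp10, known from stress granules through its binding of G3bp1, was at 71.5 ± 14.0 TPM at 37°C and 77.4 ± 17.8 TPM at 26°C (95% interval of the log2 change -0.51 to 0.73). G3bp1 itself was at 448 ± 133 and 266 ± 97.0 TPM (log2 fold change -0.76, limma adjusted p = 0.147).

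Of the 8 chromatin and transcription genes tested, none was called by limma on TPM as deposited or by voom on recovered reads, and 2 had an unadjusted p under 0.05. Usp7 and Usp3 had the highest changes, both without overlap between groups. Usp7, known for stabilizing MDM2 and p53, was at 81.8, 83.4 and 132 TPM at 37°C and at 149, 143 and 173 TPM at 26°C (log2 fold change 0.67, SE 0.257, limma adjusted p = 0.0992). Replicate 3 was the highest library of each condition. Usp3, a histone H2A and H2B deubiquitinase, was at 4.92, 3.83 and 3.23 TPM at 37°C and at 7.96, 6.57 and 6.80 TPM at 26°C (log2 fold change 0.71, SE 0.264, limma adjusted p = 0.0931). With median of ratios scaling, described below, Usp7 and Usp3 were upregulated (log2 fold changes 1.07 and 1.04, limma adjusted p = 0.0277 and 0.0401). On that scale 6.56% of all genes were upregulated. The TPM of Usp3 was computed over 26310 bases of counted length, the longest of the family, and a gene on the same strand, Fbxl22, overlaps it at about 1 TPM. Usp22, the deubiquitinase of the SAGA coactivator, was at 73.7, 58.1 and 31.7 TPM at 37°C and 75.7, 85.0 and 52.1 TPM at 26°C. Its groups overlapped (log2 fold change 0.43, 95% interval -0.41 to 1.26). Usp21 was without overlap at 41.9 ± 6.53 against 30.1 ± 0.921 TPM, with a limma adjusted p of 0.175. Usp16, Usp27x, Usp42 and Usp48 overlapped between conditions, and Usp42 had a narrow interval of -0.56 to 0.41.

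The 2 tested genes of free ubiquitin chains and the proteasome were not called by limma on TPM or by voom on recovered reads, and neither had an unadjusted p under 0.05. Usp5 was at 124, 128 and 182 TPM at 37°C and 114, 103 and 162 TPM at 26°C, so that replicate 3 was highest in both conditions (log2 fold change -0.20, SE 0.271, limma adjusted p = 0.626). With median of ratios scaling, described below, its change was 0.19, on a scale where all genes lay higher. Usp14, which sits on the proteasome, was at 81.5 ± 10.9 and 91.3 ± 10.5 TPM (log2 fold change 0.16, 95% interval -0.35 to 0.68).

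Of the 6 tested genes with other or less known roles, 2 were downregulated, against 16.0% of all genes. Usp40 lies at chr1:87872841-87936308 (minus strand) and overlaps Dgkd on the opposite strand. Usp40 was at 4.67, 5.06 and 4.87 TPM at 37°C and at 1.53, 1.38 and 1.52 TPM at 26°C. The replicates of each condition were close together, and the log2 fold change was -1.25 (SE 0.254, limma adjusted p = 0.0180) on a scale that understates changes of low genes. Dgkd was at 40.0 TPM at 37°C and 37.0 TPM at 26°C. Usp53, which is associated with cell junctions, lies at chr3:122725142-122778184 (minus strand). It was at 5.89, 6.57 and 6.90 TPM at 37°C and at 2.61, 1.96 and 3.76 TPM at 26°C (log2 fold change -1.01, SE 0.286, limma adjusted p = 0.0447). All 26°C libraries were below all 37°C libraries. Usp54, its paralog, also had no overlap, with a log2 fold change of -0.42 that did not pass the test (limma adjusted p = 0.337). Usp6nl, the Rab GTPase activator without protease activity, was at 2.40, 2.76 and 0.771 TPM at 37°C and 3.21, 4.68 and 1.49 TPM at 26°C. It was higher at 26°C within each replicate number, and the groups overlapped (log2 fold change 0.46, SE 0.438, limma adjusted p = 0.484).

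**Figure D2:**
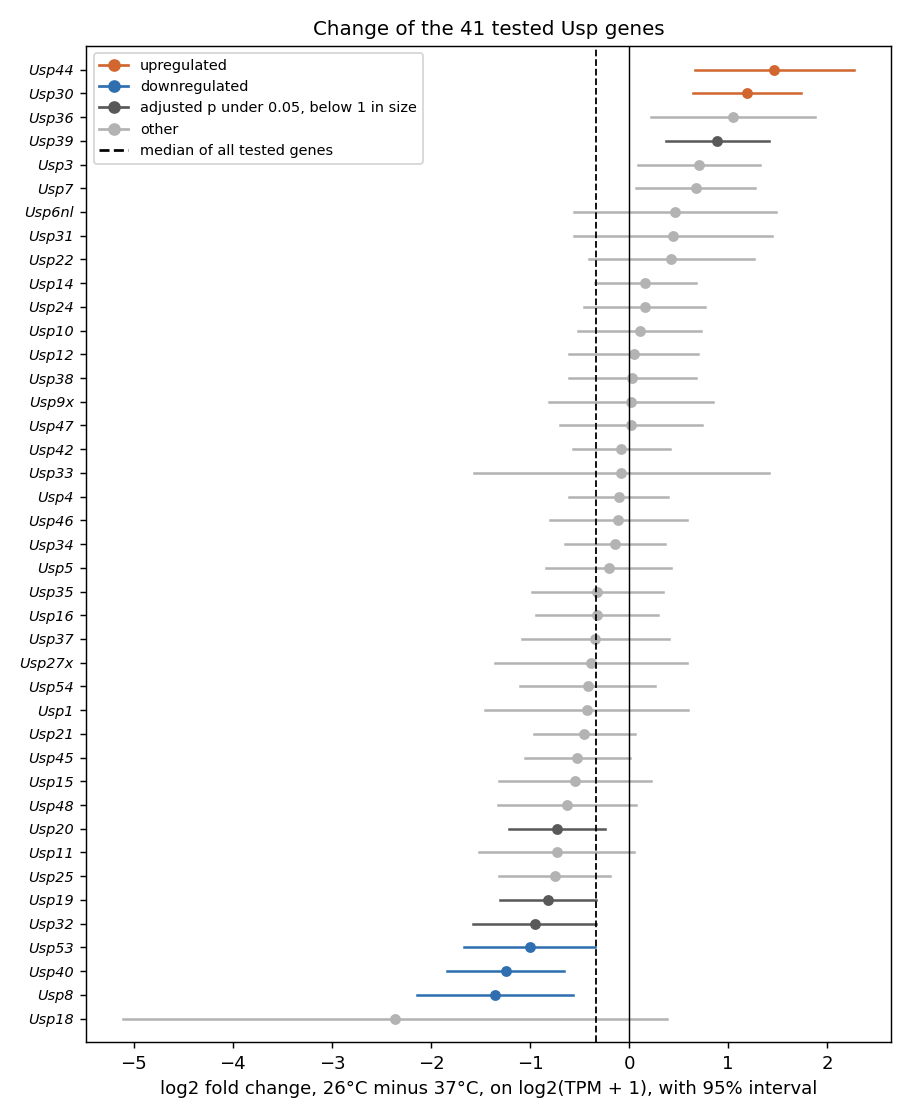
Fitted log2 fold change (26°C minus 37°C, on log2(TPM + 1)) of the 41 tested genes with its 95% interval; orange and blue mark upregulated and downregulated genes, dark grey an adjusted p under 0.05 with a smaller change, and the dashed line the median of all genes tested. Usp44 and Usp30 lie at the top, and Usp18 has the lowest value and by far the widest interval.

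In the signalling and immune group, none of the 9 tested genes was called by limma on TPM or by voom on recovered reads, 1 had an unadjusted p under 0.05 (Usp25), and Usp25 and Usp18 had the most negative changes. Usp25, known from TRAF and inflammatory signalling, was at 207, 239 and 152 TPM at 37°C and at 118, 107 and 125 TPM at 26°C. The groups did not overlap, but the log2 fold change of -0.75 (SE 0.240) missed the threshold (limma adjusted p = 0.0625). Usp12 and Usp46, close paralogs, were at 42.5 ± 10.8 and 22.6 ± 5.40 TPM at 37°C and at 43.5 ± 8.07 and 21.0 ± 5.80 TPM at 26°C. Their 95% intervals ran from -0.61 to 0.70 and from -0.80 to 0.58, so changes of the size of Usp30 lay outside both. Usp4, Usp34, Usp38 and Usp9x had log2 fold changes between -0.15 and 0.03. Usp15 had -0.54 with overlapping groups.

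Usp18 differed most between replicates. Usp18 removes the ubiquitin-like protein ISG15 from its targets and also blocks signalling at the type I interferon receptor, and interferon is known to induce it. Its gene lies at chr6:121222865-121247876 (plus strand). Usp18 was at 466, 857 and 35.5 TPM at 37°C and at 58.6, 106 and 15.9 TPM at 26°C. It was lower at 26°C within each replicate number, with changes of -2.97, -3.002 and -1.11 on the log2 scale, but replicate 3 at 37°C was below replicates 1 and 2 at 26°C. The log2 fold change of -2.36 (SE 1.18, 95% interval -5.11 to 0.38) did not pass the test (limma adjusted p = 0.186). With the replicate number as a block the adjusted p was 0.00828, and over all 15 alternatives it ran from 0.00563 to 0.453. A noncoding gene on the opposite strand, Gm44148, was at 178 TPM at 37°C and 25.6 TPM at 26°C. The libraries were made with a strand-specific kit, and the strand setting of the counting is not given in the sources used here.

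The family's total was given with and without Usp18. Summed over all 56 genes, TPM were 2173, 2698 and 1939 at 37°C and 1828, 1821 and 1916 at 26°C. Usp18 made up between 0.829% and 31.8% of this sum. Without Usp18 the sums were 1706, 1841 and 1904 TPM at 37°C and 1770, 1714 and 1900 TPM at 26°C, so the ranges overlapped. The within-condition SD on the log2(TPM + 1) scale, pooled over both conditions, was 1.96 for Usp18, 1.01 for Usp33 and 0.667 for Usp1, against a median of 0.310 over the 41 genes.

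Several genes around Usp18 showed a similar split between replicates. The list of ISG15 conjugation genes and Usp18 partners held 7 genes, all tested, and 1 was downregulated, against 16.0% of all genes. Herc6, the mouse ligase for ISG15, was at 101, 113 and 27.5 TPM at 37°C and at 13.2, 14.2 and 14.0 TPM at 26°C (log2 fold change -2.23, SE 0.509, limma adjusted p = 0.0238). The 26°C libraries were nearly equal, and replicate 3 was the lowest at 37°C. Uba7, the ISG15-activating enzyme, fell by 0.97 on the log2 scale (limma adjusted p = 0.0360), just under the fold threshold. Isg15 was at 259, 433 and 49.2 TPM at 37°C and 151, 105 and 72.8 TPM at 26°C, lower in replicates 1 and 2 and higher in replicate 3 (limma adjusted p = 0.506). Ube2l6, the conjugating enzyme, was at 158, 239 and 15.5 TPM and at 140, 222 and 29.3 TPM, a difference between replicates far above that between temperatures. Stat2, through which Usp18 reaches the interferon receptor, was at 137, 157 and 32.6 TPM and at 42.4, 43.5 and 25.8 TPM (limma adjusted p = 0.152). Ifnar2, the receptor chain that Usp18 binds, was at 18.5 ± 4.59 TPM at 37°C and 24.6 ± 2.05 TPM at 26°C, and Ifnar1 was at 30.8 ± 7.01 and 14.2 ± 6.08 TPM (limma adjusted p = 0.284 and 0.0520). With the replicate number as a block, Stat2 (log2 fold change -1.27, limma adjusted p = 0.0246) and Ifnar1 (-1.11, 0.0378) were downregulated as well, 3 of the 7 genes against 21.9% of all genes.

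**Figure D3:**
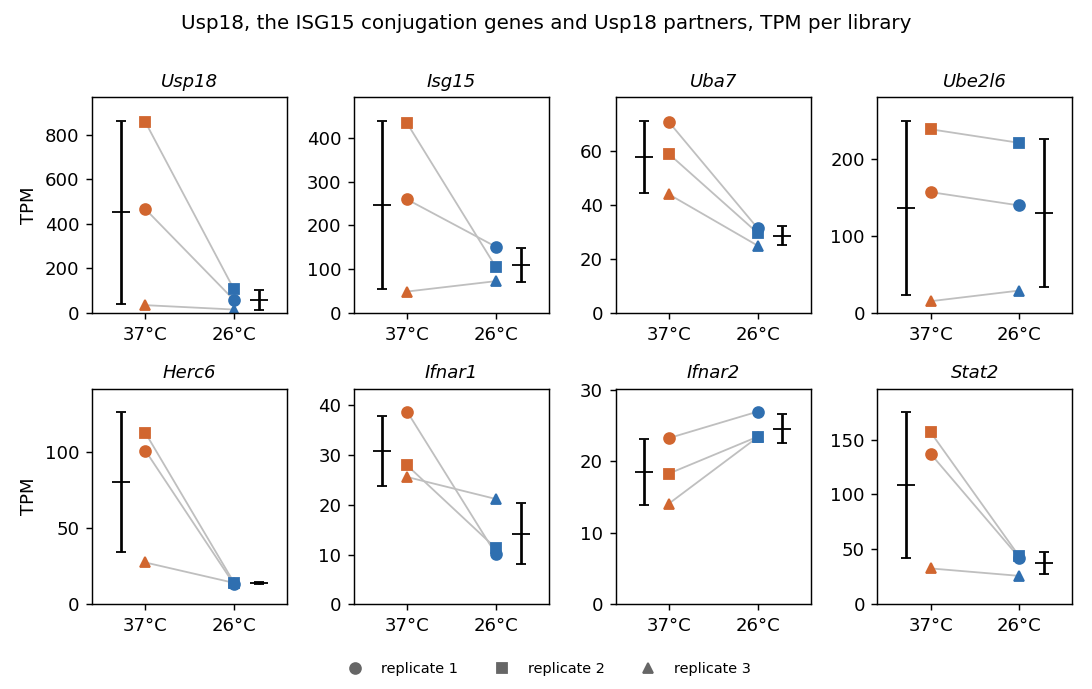
TPM of Usp18 and of 7 genes of ISG15 conjugation and Usp18 partners at 37°C (orange) and 26°C (blue); symbols mark the replicate number, lines join libraries with the same number, and bars give the mean ± SD of 3 libraries. Among the 37°C libraries, replicate 3 is the lowest for each of these genes, with Usp18 at 35.5 TPM against 466 and 857 TPM.

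Of 13 genes for proteins that bind members of the family, 1 was upregulated and 3 were downregulated, against 2.63% and 16.0% of all genes, and Wdr48 had the largest change. Wdr48 (UAF1) is the activating subunit of Usp1, Usp12 and Usp46, and Wdr20 adds to the activity of Usp12 and Usp46. Wdr48 was at 51.5, 50.9 and 46.5 TPM at 37°C and at 7.64, 12.7 and 16.2 TPM at 26°C (log2 fold change -1.999, SE 0.297, limma adjusted p = 0.00846). All 26°C libraries were far below all 37°C libraries, and the gene was called downregulated under each of the 15 alternatives, with adjusted p from 0.00324 to 0.0480. Wdr20 was at 5.98, 6.52 and 8.62 TPM at 37°C and at 1.32, 1.25 and 4.05 TPM at 26°C (log2 fold change -1.42, SE 0.384, limma adjusted p = 0.0389). Replicate 3 was the highest in both conditions, and the call of Wdr20 was lost with median of ratios scaling (limma adjusted p = 0.0699). The enzymes they bind, Usp1, Usp12 and Usp46, did not pass the test (log2 fold changes -0.43, 0.05 and -0.11).

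Atxn7 and Atxn7l1 belong to the part of SAGA that anchors Usp22, and they moved in opposite directions. Atxn7 was at 8.94, 8.48 and 9.55 TPM at 37°C and at 19.0, 24.7 and 17.7 TPM at 26°C (log2 fold change 1.09, SE 0.241, limma adjusted p = 0.0219). Atxn7l1 was at 7.90, 5.61 and 6.75 TPM at 37°C and at 1.73, 1.98 and 4.09 TPM at 26°C (log2 fold change -1.16, SE 0.330, limma adjusted p = 0.0454), a call lost with median of ratios scaling (log2 fold change -0.84, limma adjusted p = 0.1). Atxn7l3 and Eny2, which activate Usp22 and its relatives, did not pass the test (log2 fold changes 0.62 and 0.22). Gmps, a partner of Usp7, was at 56.9 ± 5.83 TPM at 37°C and 62.7 ± 8.09 TPM at 26°C.

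**Figure D4:**
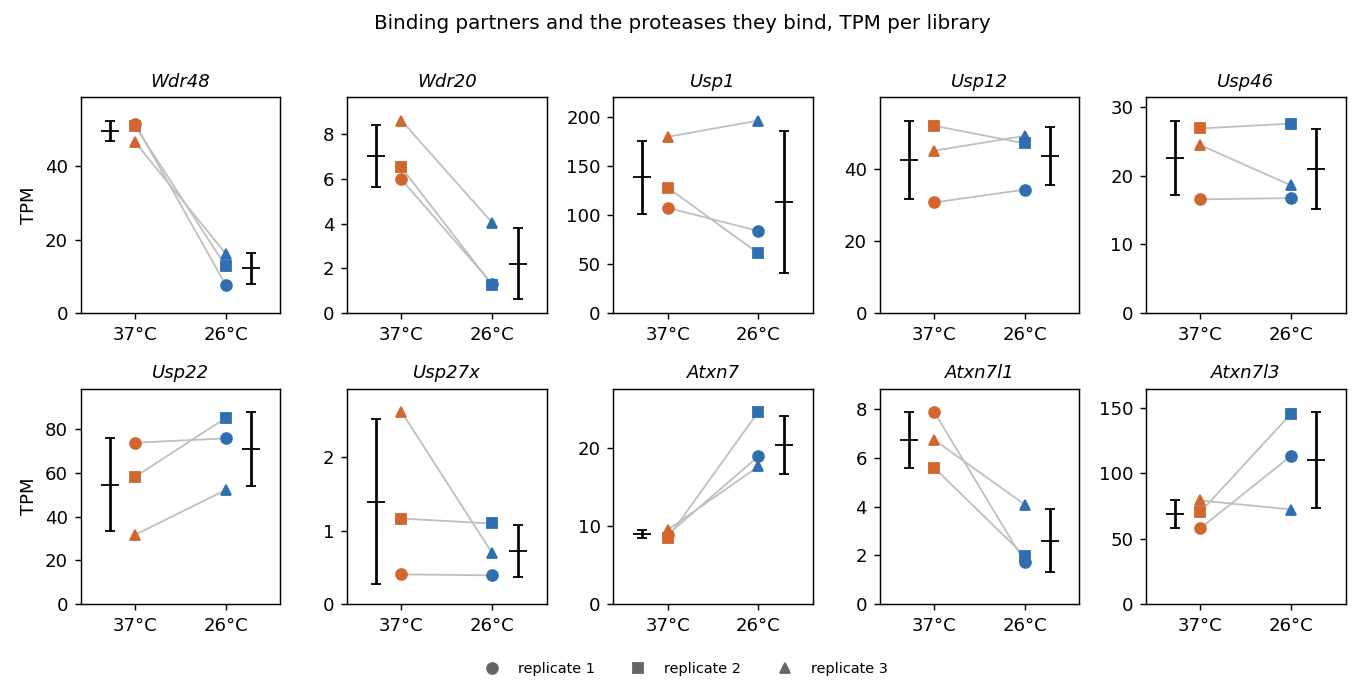
TPM of binding partners (Wdr48, Wdr20, Atxn7, Atxn7l1, Atxn7l3) and of the proteases they bind (Usp1, Usp12, Usp46, Usp22, Usp27x) at 37°C (orange) and 26°C (blue), with replicate numbers as symbols and mean ± SD of 3 libraries as bars. Wdr48 drops from 49.6 to 12.2 TPM on average while the points of Usp12 and Usp46 overlap.

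The other deubiquitinase families, the ubiquitin genes and the partners above were read from lists as well. Of 68 genes on 8 lists, 63 were tested, 1 was upregulated (1.59%, against 2.63% of all genes) and 8 were downregulated (12.7%, against 16.0%). The median log2 fold change of the 63 was -0.13, against -0.34 over all genes tested. Besides Wdr48, Wdr20, Atxn7, Atxn7l1 and Herc6, the called genes were Cyld, Josd2, Mindy1 and Uba6, all lower. Cyld, which cuts linear and lysine 63-linked chains in NF-κB signalling and has a USP fold without the Usp name, was at 28.2 ± 3.73 TPM at 37°C and 13.1 ± 2.02 TPM at 26°C (log2 fold change -1.05, limma adjusted p = 0.0232). Josd2 was at 41.3 ± 10.7 and 16.5 ± 4.41 TPM, and Mindy1 was at 124 ± 42.5 and 41.4 ± 14.3 TPM (log2 fold changes -1.28 and -1.55, limma adjusted p = 0.0242 for both). With median of ratios scaling Cyld (-0.67, limma adjusted p = 0.0778) and Josd2 (-0.89, 0.0700) were no longer called. Uba6, an E1 enzyme that activates ubiquitin, was at 51.9 ± 6.02 and 19.3 ± 3.30 TPM (log2 fold change -1.39, limma adjusted p = 0.0109), while the main E1 Uba1 was at 215 ± 108 and 183 ± 134 TPM. The 12 tested OTU deubiquitinases, the 3 tested UCH enzymes and the 12 JAMM proteins had no gene called by limma on the deposited scale, with 6, 0 and 3 genes at an unadjusted p under 0.05. With median of ratios scaling, limma called 3 OTU genes and 2 JAMM genes upregulated, namely Otub1, Otud4, Otulin, Brcc3 and Mysm1. On that scale 6.56% of all genes were upregulated. Voom on recovered reads called Otub1 and Brcc3, where 408 of all 12227 genes were upregulated. On the deposited scale, the smallest p values of these lists were those of Otub1 (log2 fold change 0.96, limma adjusted p = 0.0512), Uchl5 (-0.52, 0.410) and Brcc3 (0.86, 0.0295). The polyubiquitin gene Ubb was at 1728 ± 192 TPM at 37°C and 1841 ± 458 TPM at 26°C.

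The median change of the family is given beside that of all genes, as a description that was not tested. The median log2 fold change of the 41 genes was -0.15, against -0.34 over all genes tested, a difference of 0.19 that was -0.036 when no filter on low values was used. Within replicates 1, 2 and 3 the median of the family was -0.07, -0.21 and -0.17, and that of all genes -0.32, -0.44 and -0.24. Of the 41 genes, 19 (46.3%) were lower at 26°C in all 3 pairs of libraries with the same number and 9 (22.0%) were higher, against 47.9% and 18.2% of all genes. The groups did not overlap for 6 genes that were higher at 26°C (14.6%, all genes 9.69%) and for 11 that were lower (26.8%, all genes 31.4%). The changes of 23 genes lay between -0.5 and 0.5.

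**Figure D5:**
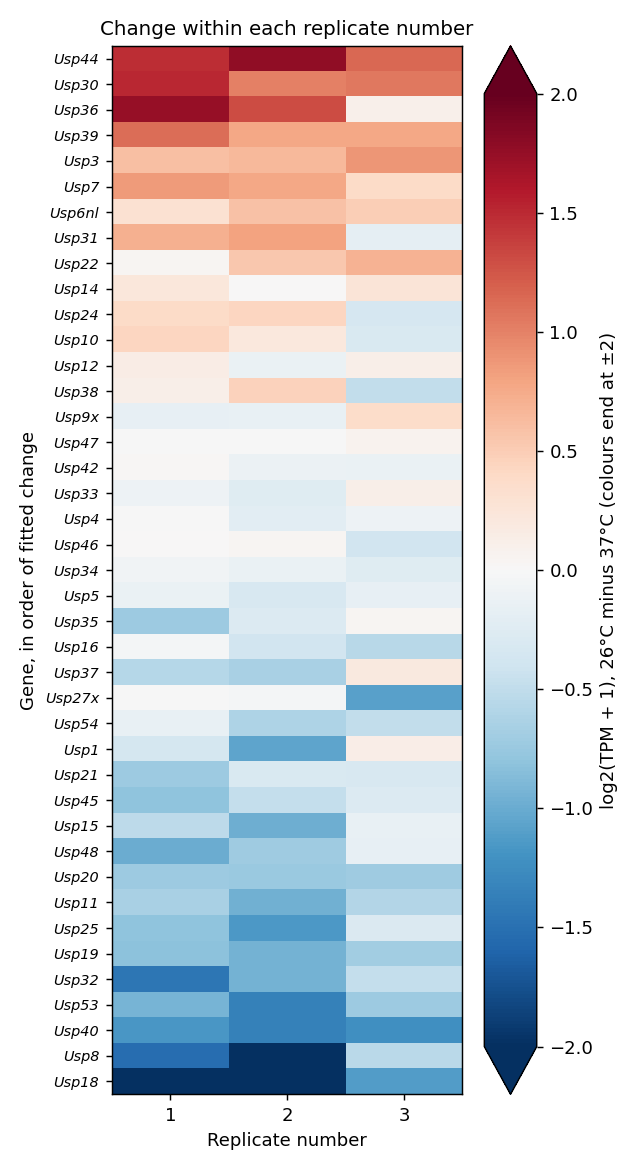
Change in log2(TPM + 1), 26°C minus 37°C, within each replicate number for the 41 tested genes, ordered by the fitted change; red is higher and blue lower at 26°C. Usp44, Usp30, Usp39, Usp3 and Usp7 are red in all 3 columns, while Usp36 and Usp31 are red for replicates 1 and 2 but pale for replicate 3.

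The split between higher and lower depended on how the libraries were set against each other. TPM was compared as deposited in the tests above, under which most genes shifted down. In median of ratios scaling, each library is divided by the typical ratio of its genes to their geometric means. The study's methods name this kind of scaling for its counts. On that scale, the median of all genes was 0.02 and that of the family was 0.24. Under this scaling 6 of the 41 genes were upregulated (14.6%), Usp3, Usp7, Usp30, Usp36, Usp39 and Usp44, and 0 were downregulated, against 6.56% and 8.79% of all genes. Usp8, Usp40 and Usp53 were the 3 lower genes with an unadjusted p under 0.05 on this scale, and voom on recovered reads, without this scaling, called the same 3 downregulated. At an adjusted p under 0.05 regardless of fold, Usp40 remained lower (log2 fold change -0.95, limma adjusted p = 0.0405), while Usp8 and Usp53 did not (-0.97 and -0.69, limma adjusted p = 0.0673 and 0.111). Usp19, Usp20 and Usp32 did not pass either, with log2 fold changes of -0.42, -0.34 and -0.59 (limma adjusted p = 0.189, 0.263 and 0.144), nor did they with voom on recovered reads (limma adjusted p = 0.0549, 0.0749 and 0.0558). Usp30 and Usp44 were called under both scalings. With the replicate number as a block, 3 genes were upregulated and 4 downregulated, adding Usp36 and Usp18, against 3.75% and 21.9% of all genes. Usp25, Usp7 and Usp11 also came under an adjusted p of 0.05 with the block, at smaller changes (limma adjusted p = 0.0416, 0.0390 and 0.0461).

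With 3 libraries in each condition, the calls were sensitive to leaving out single libraries while the changes kept their direction. Over the 6 fits that each lacked a single library, the log2 fold change ran from 1.10 to 1.29 for Usp30, 1.16 to 1.63 for Usp44, -1.68 to -1.05 for Usp8, -1.27 to -1.22 for Usp40 and -1.19 to -0.84 for Usp53. None of the 5 called genes kept its call when non-acclimated replicate 1, non-acclimated replicate 2 or cold-acclimated replicate 1 was left out, with limma adjusted p from 0.0618 to 0.137 in those fits. Usp30 alone was still called when cold-acclimated replicate 2 was left out. Without non-acclimated replicate 3, Usp30 and Usp36 were upregulated and Usp18, Usp32 and Usp40 downregulated. In the fit lacking cold-acclimated replicate 3, Usp30 and Usp44 were upregulated and Usp8, Usp32, Usp40 and Usp53 downregulated. With replicate 3 of both conditions left out, all 5 were called, together with Usp18, Usp32 and Usp36.

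Paralogs that share ancestry showed unlike changes in some pairs. Usp36 and Usp42 had log2 fold changes of 1.05 and -0.08, Usp7 and Usp47 of 0.67 and 0.02, and Usp20 and Usp33 of -0.73 and -0.08. Usp4, Usp11 and Usp15 had -0.11, -0.73 and -0.54. These differences between paralogs were not tested. Of 1540 pairs of the 56 genes, 17 shared at least 1 stretch of 50 identical bases between their annotated transcripts (GENCODE vM39). The Usp17l genes on chromosome 7 accounted for 10 of these pairs, and reads from these copies could not be assigned with certainty. Usp17lc and Usp17ld shared 976 such stretches. These were counted from every base, so neighbouring stretches overlap and the number is not one of separate regions. None of the pairs compared at the start of this paragraph shared such a stretch. Other listed genes overlapped 25 of the 56 genes, 6 of them on the same strand and 22 on the opposite strand.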

How the data were processed

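RNA was isolated by the authors from D10 T cells (3 libraries each at 26°C and 37°C for 24 h), poly(A)-selected, and made into strand-specific paired-end libraries. Per the submitters' processing notes, the tools were FastQC 0.11.7, Trimmomatic 0.38, HISAT2 2.1.0 and featureCounts 1.6.3, with GRCm39. The authors deposited TPM per gene, and the deposited table was used as given. Labels mention old and new extraction batches without saying which library belongs to which, so no batch term could be fitted.

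Genes with a mean of at least 1 TPM (12227) were tested with limma 3.58.1 (R 4.3.3, mean-variance trend) on log2(TPM + 1) over all 6 libraries, with Benjamini-Hochberg adjustment over all of them. The thresholds, 0.05 for the adjusted p and 1 for the size of the log2 change, follow the study's methods, where a count model was used; the unit here needed a test on a log scale. A fold change on this scale understates the change of low genes. Read numbers were recovered from the TPM steps (100% of values whole within a relative tolerance of 1e-06) for depth and for a voom alternative. The replicates were prepared independently per the study's methods. Same-numbered libraries deviated together from their group means (r = 0.480, 0.503 and 0.512, against -0.408 to 0.019 for different numbers), so the numbers were taken to pair the libraries, and the fit with the replicate number as a block was run as an alternative. On simulated data for this comparison (12125 genes, 200 changed by a log2 of 2), limma called 197 of the changed genes in the right direction and 15 unchanged ones. The simulation gave every gene the same extra spread, with no effect of the replicate number and no shift of all genes. Its changes were also larger than those of the called Usp genes, so it does not speak to how sure those calls are.

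The genes, role groups and lists were chosen with earlier results of these data known. Full statistics are given for called genes, genes at an adjusted p under 0.05, the 5 with the highest mean TPM, the smallest p of each role group and list, Usp18 and Usp6nl; other members are given by levels or ranges. Statistics of Usp36 and of other members and list genes outside this rule were added after their values were seen. Gene positions are those of the deposited table (GRCm39). Upstream sequences are those of RefSeq (GRCm38.p6). Protein sequences were not used here. Alternatives were another pseudocount, filter, scaling or tool, the replicate block, and leaving out libraries.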

Additional observations from a re-analysis of the deposited data

How the results depend on the processing

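Counts of called Usp genes moved with the processing. Against 2 upregulated and 3 downregulated of 41 tested genes, the counts were 1 and 1 of 47 with no filter on low values. At a mean TPM of at least 5 they were 2 and 1 of 35. With median of ratios scaling they were 6 and 0, and with quantile normalization 3 and 0. The replicate block and median of ratios scaling together gave 6 and 1. Without replicate 3 of both conditions they were 3 and 5. Counts over all genes under these settings are given in the next paragraph. Leaving out 1 library gave 0 to 2 upregulated and 0 to 4 downregulated Usp genes. With the replicate block alone they were 3 and 4, Usp18 and Usp36 being the genes it added, and it changed no other call among the Usp genes.

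Over all genes, 321 were upregulated and 1954 downregulated. These became 184 and 1121 of 21195 with no filter, and 227 and 1518 of 9743 at a mean TPM of at least 5. They were 802 and 1075 with median of ratios scaling and 731 and 765 with quantile normalization. The replicate block gave 458 and 2679, and 1086 and 1544 together with median of ratios scaling. Without replicate 3 the counts were 653 and 3088. They ranged over 59 to 459 and 345 to 2725 when 1 library was left out. The median log2 fold change of the family, -0.15, was 0.24 with median of ratios scaling, with or without the replicate block, 0.19 with quantile normalization and -0.020 with voom, and ran from -0.336 to -0.043 when 1 library was left out. Relative to all genes it was 0.19, with -0.036 where no filter was used and 0.055 to 0.287 when 1 library was left out. For the 68 pathway genes, 1 upregulated and 8 downregulated became 4 downregulated with no filter, 6 and 4 with median of ratios scaling, 5 and 3 with quantile normalization, 3 upregulated with voom, 10 and 5 with the replicate block and median of ratios scaling, and 5 and 16 without replicate 3. Leaving out 1 library gave 0 to 3 and 1 to 11 there. Usp5 came to 0.19 with median of ratios scaling, with and without the replicate block. It was 1 of 8 tested Usp genes whose small negative change turned positive there, with Usp4, Usp16, Usp33, Usp34, Usp37, Usp42 and Usp46, on a scaling that moved the median of all genes from -0.34 to 0.02. The cause of the other shifts was not tested, and leaving out libraries left fewer of them.

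Over 15 followed genes and their alternatives, 170 values kept direction and side of the threshold, 34 kept direction but no longer passed, 16 kept direction and came to pass, and 2 reversed. With 3 libraries in each condition, small changes of single genes were not resolved.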
